A study of Homo sapiens with 9 samples.

Results

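GTF2F1, SLC25A23, ALKBH7, DENND1C, CLPP, TNFSF9, MLLT1 and CD70 are the expressed neighbours of KHSRP on human chromosome 19. They were chosen by position and level, with earlier results of these data already known. Each starts within 180 kb of the KHSRP start and had a mean of at least 1 TPM over the 9 libraries. TPM is a transcript's share of its library, scaled to 1000000. The 8 genes are part of 10939 tested genes and of 25540 gene symbols in the authors' table. TPM is corrected for transcript length, so levels of different genes can be set side by side.

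The study knocked KHSRP down by CRISPR interference in CAL-1 and sequenced RNA to find differentially expressed genes. CAL-1, an established human line, was derived from a leukemia known as BPDCN, whose cells resemble the interferon-producing plasmacytoid dendritic cells. There were 3 libraries labelled KHSRPi#1 and 3 labelled KHSRPi#2, both with the genotype KHSRP knockdown, and 3 control libraries labelled NTC, with the genotype WT. What #1 and #2 stand for is not stated, and both groups are compared with the same NTC libraries. No label says whether replicates are separate cultures, so p-values reflect only how much these libraries vary, and that variation may be technical. The sequences and binding sites of the guides, the repressor protein, the time after knockdown and whether lines were clones or pools are not stated by the labels.

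CRISPR interference sends a cutting-deficient Cas9, often fused to a repressor domain, to a gene's start, where it blocks transcription. A repressor of the KRAB type recruits enzymes that lay down methylation on histone H3 lysine 9, and such silenced chromatin can extend beyond the site where it was begun. Neighbouring genes are therefore read beside the targeted gene, to ask how far along the chromosome RNA levels differ. KHSRP itself encodes a protein that binds RNA through KH domains and speeds the decay of mRNAs rich in AU elements.

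On hg38, in the GENCODE 29 annotation, KHSRP lies on chromosome 19 from 6413348 to 6424794 on the minus strand. Sides are named here by the direction of KHSRP transcription, so genes at higher positions are upstream. Upstream lie SLC25A23 (6436079 to 6465203, minus strand, start 40.4 kb away), DENND1C (6467207 to 6482557, minus strand, 57.8 kb), TNFSF9 (6530999 to 6535928, plus strand, 106 kb) and CD70 (6583183 to 6604103, minus strand, 179 kb). Downstream lie GTF2F1 (6379569 to 6393981, minus strand, 30.8 kb), ALKBH7 (6372433 to 6375251, plus strand, 52.4 kb), CLPP (6361452 to 6368910, plus strand, 63.3 kb) and MLLT1 (6210379 to 6279948, minus strand, 145 kb). CD70 is inside the window by a small margin, and the start of its principal transcript is 166 kb away. No neighbour starts back to back with KHSRP. On the upstream side the next gene body ends 1.24 kb from the KHSRP start and belongs to SLC25A41. On the downstream side GTF2F1, the next protein-coding gene, begins 19.4 kb beyond the KHSRP end. The pseudogene AC011491.1 (6393794 to 6412404, plus strand) fills most of that gap and ends 0.943 kb from the KHSRP end. It has no row under that name.

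**Figure D1:**
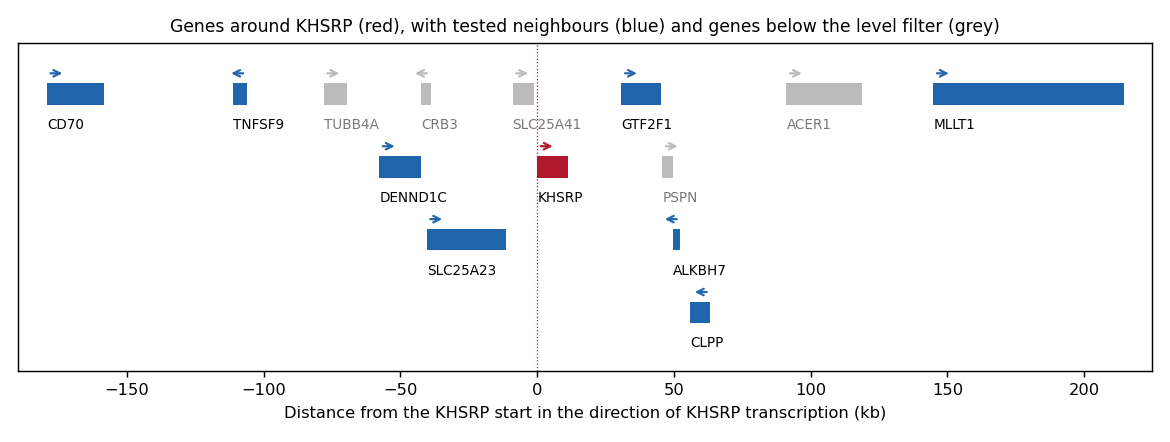
Genes with a row in the table that start within 180 kb of the KHSRP start, drawn to scale; the horizontal axis is the distance from the KHSRP start in kb, positive in the direction of KHSRP transcription, and arrows give each gene's own direction at its start. KHSRP is red, the 8 tested neighbours are blue and the 5 genes under the level filter are grey; SLC25A41 is the only drawn gene between KHSRP and SLC25A23.

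The bases just before 3 of the starts are shown because CRISPR interference acts near starts: that of the targeted gene, that of SLC25A23, the expressed upstream neighbour with the nearest start, and that of TNFSF9, the neighbour whose knockdown libraries all lay below its controls. Each is the 250 bases before the RefSeq start on GRCh38.p14, read 5′ to 3′ on the gene's own strand, at chr19:6424812-6425061 (minus strand), chr19:6459793-6460042 (minus strand) and chr19:6530776-6531025 (plus strand). The SLC25A23 window precedes the start of its principal transcript, 34.9 kb from the KHSRP start, and so lies inside the gene body given above. Capitals mark matches to the motifs named after them.
KHSRP: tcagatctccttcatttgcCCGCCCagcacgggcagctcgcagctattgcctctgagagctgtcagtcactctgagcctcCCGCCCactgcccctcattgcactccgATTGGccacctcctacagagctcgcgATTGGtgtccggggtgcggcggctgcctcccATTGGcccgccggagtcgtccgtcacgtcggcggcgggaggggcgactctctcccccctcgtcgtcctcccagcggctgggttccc
SLC25A23: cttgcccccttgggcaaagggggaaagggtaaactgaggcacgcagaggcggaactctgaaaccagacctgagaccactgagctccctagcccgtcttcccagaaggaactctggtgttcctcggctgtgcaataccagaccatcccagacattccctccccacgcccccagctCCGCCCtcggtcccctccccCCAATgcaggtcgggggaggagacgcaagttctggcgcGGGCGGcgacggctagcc
TNFSF9: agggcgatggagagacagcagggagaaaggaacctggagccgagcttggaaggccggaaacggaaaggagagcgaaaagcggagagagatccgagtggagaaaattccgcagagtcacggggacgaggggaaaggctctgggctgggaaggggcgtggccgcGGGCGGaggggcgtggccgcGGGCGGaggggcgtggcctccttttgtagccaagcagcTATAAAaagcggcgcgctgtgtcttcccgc

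The motifs searched on both strands were the CCAAT box (CCAAT), the GC box (GGGCGG), the TATA box (TATAAA), the E-box (CACGTG) and the cAMP response element (TGACGTCA). The KHSRP window held 3 CCAAT boxes and 2 GC boxes, all on the opposite strand, and had a GC content of 67.6%. SLC25A23 had 1 CCAAT box and 2 GC boxes, while TNFSF9 had 2 GC boxes and the 1 TATA box found in the windows of KHSRP and the members. Among 35116 RefSeq windows of the same length, 32.0% held a CCAAT box, 42.6% a GC box and 10.7% a TATA box. RefSeq windows were found for KHSRP and 6 members, and those of CLPP and CD70 were not used here. The 300 bases around the KHSRP start, 250 before and 50 after it, held 62 candidate sites of 20 bases followed by NGG, the sequence that the common Cas9 needs. For 0 of the 62 were the 12 bases next to NGG also present, with their own NGG, in the windows of the 6 members; for 22 they were present in at least 1 other of 27304 gene windows. These are all possible sites, not the guides used. With matches for only 22 of the 62 in all 27304 windows, 0 in the windows of 6 members was likely beforehand. Whether the guides bind near the members was not tested.

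The knockdown was checked on KHSRP. It was at 35.1, 35.1 and 35.1 TPM in the KHSRPi#1 libraries and 35.8, 33.7 and 36.5 TPM in the KHSRPi#2 libraries, against 253, 244 and 216 TPM in the NTC libraries. The knockdown libraries held between 14.2% and 15.4% of the NTC mean. On the log2(TPM + 1) scale, which is used for all fold changes here and understates those of low genes, KHSRP fell by 2.72 (SE 0.06, limma adjusted p over all tested genes 1.75e-09). Of 12 markers of plasmacytoid dendritic cells and BPDCN, 10 had a mean of at least 1 TPM; LILRA4 was at 0.881 TPM, and IL3RA, which encodes the defining receptor CD123, was listed at 0 in every library; whether this 0 reflects the cells or the counting or annotation was not tested. Their summed level was 3915 to 4465 TPM in the knockdown libraries and 3784 to 4304 TPM in NTC, most of it from IRF8. Single markers differed more: GZMB was at 55.1 to 99.7 TPM in the knockdown libraries and at no more than 47.7 TPM in NTC, and TCL1A and LILRA4 also lay above every NTC library in all 6 knockdown libraries. This held for 3.1% of all tested genes, which do not include LILRA4. The part of these markers in the results below was not tested. Of 10 markers of other cells, LYZ (62.1 TPM) and PAX5 (3.13 TPM) were above 1 TPM, CD3D and EPCAM were at 0, and the sum was 41.4 to 84.8 TPM in the knockdown libraries and 40.7 to 94.2 TPM in NTC. Read totals cannot be had from TPM, but steps between low values gave relative depths of 0.98 to 1.83, with NTC replicate 1 as the unit. The replicate 3 libraries, 1 in each group, differed from replicates 1 and 2: with the groups in the fit, 3314 of the 10939 tested genes (30.3%) had an adjusted p under 0.05 for that difference.

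None of the 8 neighbours changed with the knockdown at an adjusted p under 0.05, on average over the knockdown groups or in either group alone. Their knockdown means lay between 88.2% (TNFSF9) and 104% (GTF2F1) of their NTC means, while KHSRP was at 14.8%. Across all tested genes limma called 0.0823% on average over the groups, 0.0548% in KHSRPi#1 and 0.0548% in KHSRPi#2. A share of 0 among 8 genes is therefore near the background, and the intervals say more: the lowest end of a 95% interval was that of SLC25A23 in each comparison with NTC, a difference on the TPM + 1 scale of -25.1% on average over the groups, -28.7% in KHSRPi#1 and -25.2% in KHSRPi#2. Without adjustment 1 of the 8, TNFSF9, had a p under 0.05, against 7.93% of all tested genes; this was also the case in KHSRPi#1 alone (1 of 8, against 5.24%) and in KHSRPi#2 alone (1 of 8, against 6.93%). RNA came from whole cultures, so fewer cells with a transcript and less of it in each cell cannot be told apart.

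**Figure D2:**
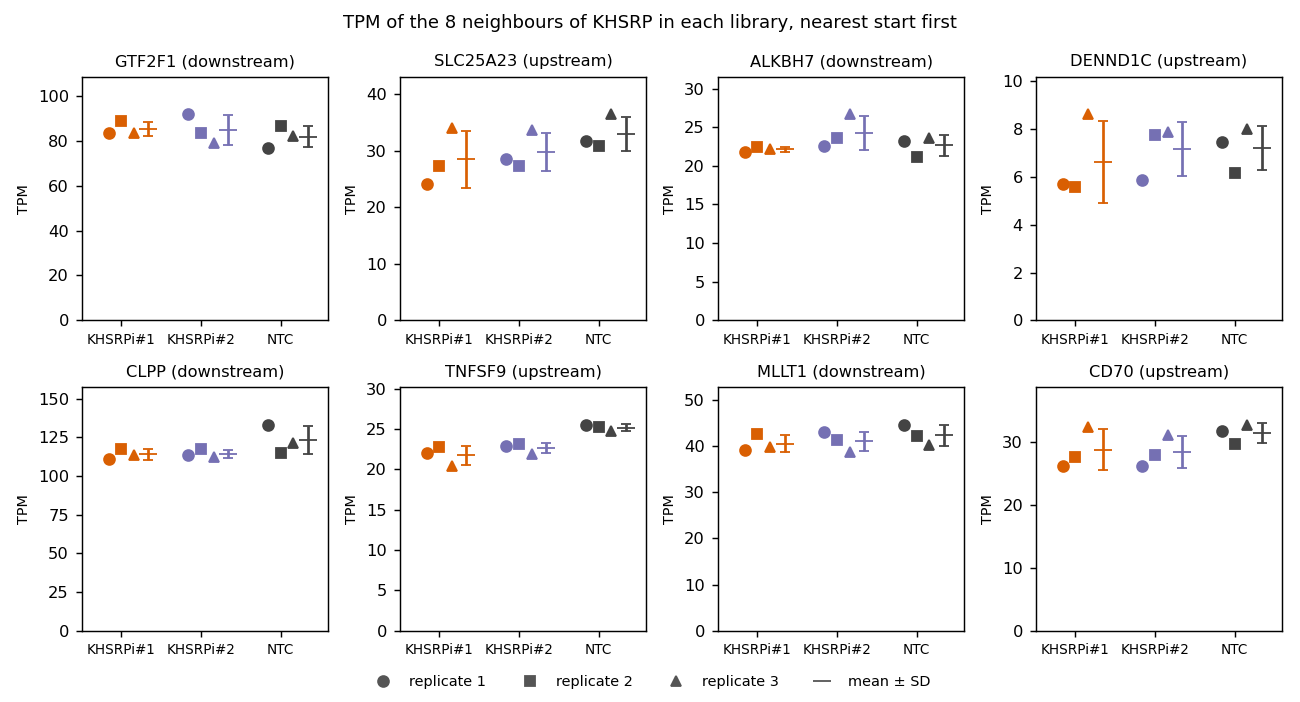
TPM of each neighbour in each library, one panel per gene in order of the distance of its start from the KHSRP start; the vertical axis starts at 0, symbols give the replicate number and bars the mean ± SD of 3 libraries. The knockdown and NTC libraries overlap in every panel but that of TNFSF9; there the knockdown libraries (20.5 to 23.2 TPM) all lie below the NTC libraries (24.8 to 25.6 TPM), and for SLC25A23, DENND1C and CD70 the highest library of KHSRPi#1 is replicate 3.

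In the NTC libraries the members were ordered CLPP (123 ± 9.22 TPM), GTF2F1 (81.8 ± 4.83 TPM), MLLT1 (42.3 ± 2.24 TPM), SLC25A23 (33.0 ± 3.01 TPM), CD70 (31.3 ± 1.56 TPM), TNFSF9 (25.2 ± 0.395 TPM), ALKBH7 (22.7 ± 1.35 TPM) and DENND1C (7.21 ± 0.939 TPM; SD, n = 3). Over the 9 libraries the ranges of SLC25A23 and CD70 overlapped, as did those of TNFSF9 and ALKBH7; the other pairs of genes next to each other in this order did not overlap.

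GTF2F1 and MLLT1 act in transcription by RNA polymerase II. GTF2F1 encodes the large subunit of TFIIF, which accompanies the polymerase into the pre-initiation complex, and it is the expressed gene with the start nearest to that of KHSRP. It was at 83.6, 89.0 and 83.4 TPM in the KHSRPi#1 libraries and 91.8, 83.4 and 78.8 TPM in the KHSRPi#2 libraries, against 77.0, 86.6 and 82.0 TPM in the NTC libraries. The groups overlapped, with the highest value in KHSRPi#2 replicate 1 and the lowest in NTC replicate 1. Its log2 fold change averaged over the groups was 0.05 (95% interval -0.08 to 0.18, limma adjusted p = 0.857). The lower end of this interval is a difference of -5.17%.

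MLLT1 encodes ENL, a reader of acetylated histones in the super elongation complex and a partner in KMT2A fusions of leukemia. Its levels were 39.0, 42.6 and 39.8 TPM with KHSRPi#1 and 43.0, 41.2 and 38.7 TPM with KHSRPi#2, against 44.6, 42.1 and 40.1 TPM in NTC. The ranges overlapped, and 3 of the 6 knockdown libraries lay below the lowest NTC library. The log2 fold change of MLLT1 was -0.05 (95% interval -0.18 to 0.07, adjusted p = 0.848), and it was -0.02 without NTC replicate 1 and -0.09 without NTC replicate 3.

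CLPP, ALKBH7 and SLC25A23 encode mitochondrial proteins. CLPP is the proteolytic subunit of the ClpXP protease of the matrix. It was the most abundant neighbour, at 111, 118 and 114 TPM with KHSRPi#1 and 113, 117 and 113 TPM with KHSRPi#2, against 133, 115 and 122 TPM in NTC. NTC replicate 1 stood highest, and 4 of the 6 knockdown libraries lay below every NTC library. Its log2 fold change was -0.11 (95% interval -0.22 to 0.01, adjusted p = 0.636), and -0.05 without NTC replicate 1. With a term for the replicate 3 libraries in the fit the interval of CLPP was -0.21 to -0.01. The limma adjusted p of 0.249 in that fit did not pass.

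ALKBH7 encodes a mitochondrial member of the AlkB dioxygenase family known for a part in programmed necrosis. The KHSRPi#1 libraries held 21.8, 22.4 and 22.2 TPM and the KHSRPi#2 libraries 22.5, 23.6 and 26.7 TPM, against 23.2, 21.1 and 23.6 TPM in NTC. KHSRPi#2 replicate 3 was the highest library and the only one beyond the NTC range on the upper side. On average over the groups the log2 fold change of ALKBH7 was 0.03 (95% interval -0.11 to 0.17, adjusted p = 0.935). ALKBH7 overlaps PSPN on the opposite strand by 104 bases; whether counting used strand is not known, but PSPN was at a mean of only 0.529 TPM.

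SLC25A23 encodes SCaMC-3, a calcium-dependent carrier that exchanges ATP-Mg for phosphate across the inner membrane. Its levels were 24.2, 27.2 and 34.1 TPM with KHSRPi#1 and 28.5, 27.2 and 33.6 TPM with KHSRPi#2, against 31.6, 30.9 and 36.4 TPM in NTC. The groups overlapped through the replicate 3 libraries, which were the highest of their group in all 3 groups. Within replicates 1 and 2 the knockdown mean was 26.8 TPM and the NTC mean 31.3 TPM, and within replicate 3 they were 33.8 and 36.4 TPM. SLC25A23 had the most negative log2 fold change of the members, -0.18 (95% interval -0.42 to 0.06, adjusted p = 0.719), and 2.67% of all tested genes were at or below that value. Without NTC replicate 3 it was -0.11. With a term for the replicate 3 libraries in the fit its interval narrowed to -0.29 to -0.07, and its adjusted p of 0.102 did not pass.

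TNFSF9 and CD70 belong to the tumor necrosis factor ligand family. TNFSF9 encodes 4-1BB ligand, a costimulatory ligand of antigen-presenting cells for T cells. It was at 22.1, 22.8 and 20.5 TPM in the KHSRPi#1 libraries and 22.9, 23.2 and 22.0 TPM in the KHSRPi#2 libraries, against 25.6, 25.2 and 24.8 TPM in the NTC libraries. All 6 knockdown libraries lay below all 3 NTC libraries, which held for 1 of the 8 neighbours and for 1.57% of all tested genes. Taken group by group, TNFSF9 was again the 1 member below NTC in all 3 libraries of KHSRPi#1 and of KHSRPi#2. Of all tested genes, 4.3% lay below NTC in this way in KHSRPi#1 and 3.47% in KHSRPi#2. All 6 knockdown libraries lay above all 3 NTC libraries for 0 members and for 3.1% of all tested genes. The log2 fold change of TNFSF9 was -0.17 (SE 0.05, 95% interval -0.29 to -0.06), with a limma adjusted p of 0.438 that does not pass. With the replicate 3 term the adjusted p was 0.0654, the lowest of any member in any fit.

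CD70 encodes the ligand of CD27. The KHSRPi#1 libraries held 26.2, 27.6 and 32.4 TPM and the KHSRPi#2 libraries 26.2, 27.9 and 31.1 TPM, against 31.7, 29.7 and 32.7 TPM in NTC. The 4 knockdown libraries of replicates 1 and 2 lay below every NTC library, and those of replicate 3 within the NTC range. Within replicates 1 and 2 the knockdown mean was 27.0 TPM and the NTC mean 30.7 TPM, and within replicate 3 they were 31.7 and 32.7 TPM. Its log2 fold change was -0.13 (95% interval -0.31 to 0.04, adjusted p = 0.718). With the replicate 3 term the interval narrowed to -0.24 to -0.03, and the limma adjusted p of 0.183 did not pass. Of the receptor genes, CD27 was listed at no more than 0.0592 TPM in any library and TNFRSF9, which encodes the 4-1BB receptor, at 0 in all 9; a listed 0 need not mean that the RNA was absent.

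DENND1C encodes connecdenn 3, an exchange factor for the small GTPase RAB35 in endosomal traffic. It was the least abundant neighbour, at 5.72, 5.57 and 8.63 TPM with KHSRPi#1 and 5.89, 7.75 and 7.90 TPM with KHSRPi#2, against 7.47, 6.17 and 8.00 TPM in NTC. The groups overlapped over most of their range, and the KHSRPi#1 libraries held both the lowest and the highest value. DENND1C had the widest interval of the members, -0.37 to 0.24 around a log2 fold change of -0.06 (adjusted p = 0.938).

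**Figure D3:**
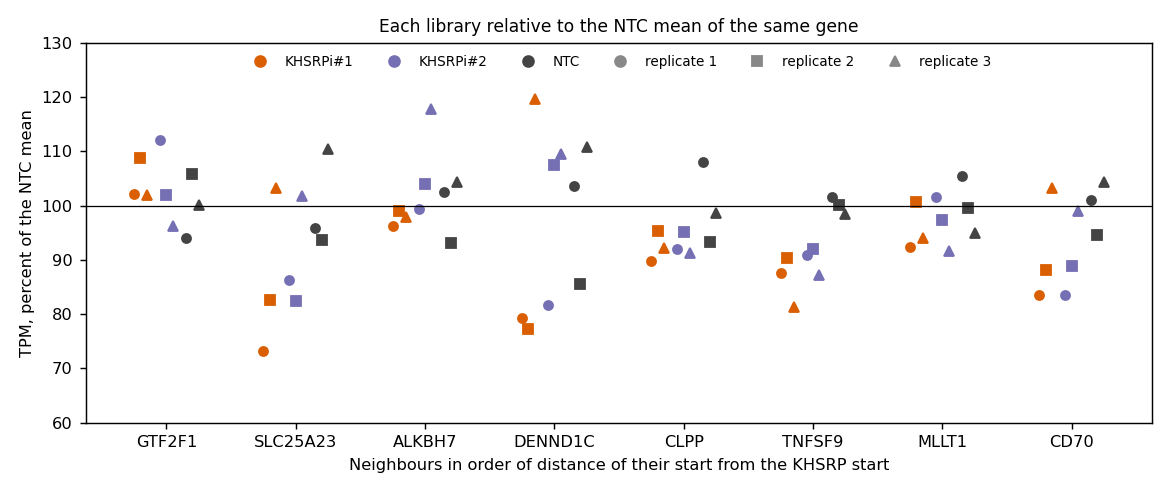
TPM of each library as a percent of the NTC mean of the same gene, for the neighbours in order of the distance of their start; colours give the group, symbols the replicate number, and the axis runs from 60% to 130%. TNFSF9 is the one gene whose knockdown libraries (81.3% to 92.1%) do not reach the NTC libraries (98.4% to 102%). In SLC25A23, CD70 and DENND1C the replicate 3 triangles of each group lie above the other symbols of that group.

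By distance, near and far members had both small and more negative log2 fold changes. GTF2F1, with the nearest expressed start, had 0.05, and SLC25A23, with the next start and the nearest gene end of the members, had -0.18. TNFSF9 and CD70, more than 100 kb away, had -0.17 and -0.13. The rank correlation of log2 fold change with distance over the 8 genes was -0.31 (Spearman's rho, a description: the genes share the same 9 libraries). It was between -0.40 and -0.14 in each of the 6 knockdown libraries set against the NTC mean, and -0.10 when distance was taken to the nearest end of each gene. By side, the 4 upstream members had log2 fold changes from -0.18 to -0.06 and the 4 downstream members from -0.11 to 0.05. These ranges overlap, and the difference between the sides was not tested.

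**Figure D4:**
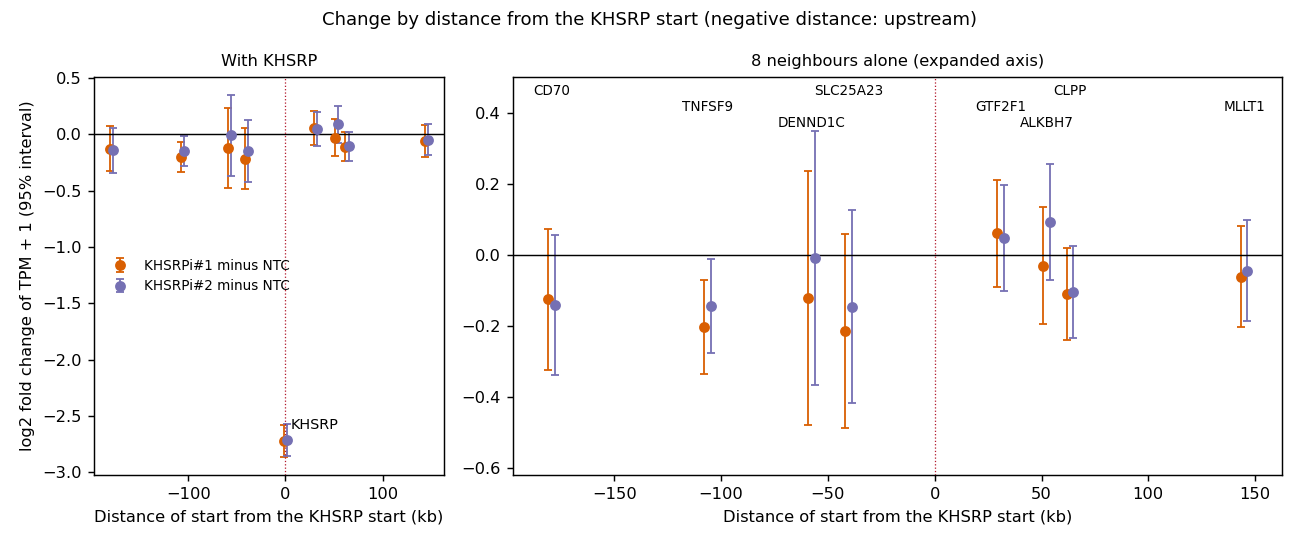
Log2 fold change of TPM + 1 with its 95% interval for KHSRPi#1 and KHSRPi#2 against NTC, by distance of each start from the KHSRP start in kb, upstream to the left; the left panel includes KHSRP and the right panel expands the axis for the 8 neighbours. KHSRP lies at -2.72 and -2.71, while the lowest estimate of a neighbour is -0.21 (SLC25A23 in KHSRPi#1), and the intervals of the 2 groups overlap for every gene.

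Counted over the members, 6 of 8 had a negative log2 fold change on average over the knockdown groups, with a median of -0.09, against 41.7% of all tested genes and a median of 0.02. That share of all tested genes depended on scaling: it was 50% under median-ratio rescaling and 50.3% under quantile normalization, with 6 members negative in both. The members' median log2 fold change was -0.04 without NTC replicate 1 and -0.16 without NTC replicate 2. The members' median level on log2(TPM + 1), a different quantity, had an SD between libraries, pooled within groups, of 0.15. Tested genes of chromosome 19 beyond 1 Mb from KHSRP were negative more often than genes at large, in 58.0% of 723, with a median of -0.02. The same 6 members were negative in both groups, which held for 31.4% of all tested genes. The negative 6 were SLC25A23, TNFSF9, CD70, CLPP, DENND1C and MLLT1. With a term for replicate 3 the number with an unadjusted p under 0.05 was 4 of 8 (TNFSF9, SLC25A23, CD70 and CLPP, all lower), against 17.5% of all tested genes, and 0 of 8 passed adjustment, against 1.76%.

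The knockdown groups were then compared with each other. In KHSRPi#1 the log2 fold changes of the members against NTC ran from -0.21 (SLC25A23) to 0.06 (GTF2F1), and in KHSRPi#2 from -0.15 (SLC25A23) to 0.09 (ALKBH7). Between KHSRPi#2 and KHSRPi#1, 0 of 8 members had an adjusted or an unadjusted limma p under 0.05, against 0% and 1.05% of all tested genes. The estimate farthest from 0 was that of ALKBH7, at 24.2 ± 2.17 TPM with KHSRPi#2 and 22.1 ± 0.325 TPM with KHSRPi#1 (SD, n = 3 each), a log2 difference of 0.12 (95% interval -0.04 to 0.29, adjusted p = 1.00). Without KHSRPi#2 replicate 3, the highest ALKBH7 library, this difference was 0.05, and other members, CD70 at -0.08 among them, were farther from 0. With replicates 1 and 2 alone ALKBH7 was at 0.06 and DENND1C, at 0.22, was farthest. With all libraries, ALKBH7 was the only member whose libraries did not overlap between these groups, which held for 4.46% of all tested genes. For TNFSF9 the difference was 0.06 (95% interval -0.07 to 0.19) and for GTF2F1 -0.01 (95% interval -0.16 to 0.14). The small differences of CLPP and MLLT1, 0.01 and 0.02, had the opposite sign under median-ratio rescaling, and that of MLLT1 also under quantile normalization. Over the members these intervals reached as far as -0.25 and 0.47, both in DENND1C.

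SLC25A23, CD70 and DENND1C also differed between the replicate 3 libraries and replicates 1 and 2, with log2 differences of 0.29 (limma adjusted p = 0.00159), 0.18 (adjusted p = 0.0142) and 0.31 (adjusted p = 0.0262). These 3 of 8 members are near the share of all tested genes, 30.3%. TNFSF9 (-0.08, adjusted p = 0.202) and the 4 downstream members did not pass, and KHSRP was at -0.04 (adjusted p = 0.533). Each group holds 1 replicate 3 library, so this difference is balanced across the groups compared above.

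The other 5 protein-coding genes of the window had a row but were under the level filter, so they were not tested. SLC25A41, a carrier gene of the same family as SLC25A23, has the start nearest to KHSRP, 8.99 kb upstream. It was at 0.0338, 0 and 0.189 TPM with KHSRPi#1 and 0.0879, 0.137 and 0.0811 TPM with KHSRPi#2, against 0.359, 0.213 and 0.0983 TPM in NTC. Its mean was 0.0883 TPM with knockdown and 0.223 TPM in NTC (39.5% of NTC), and 4 of the 6 knockdown libraries lay below every NTC library. The spacing of its values fits, as the smallest whole numbers, 15 reads in the 6 knockdown libraries and 19 in the 3 NTC libraries. These sums are not scaled for depth, and a difference at so few reads was not tested. The ranges of its knockdown and NTC libraries overlapped. PSPN (0.336 to 0.873 TPM with knockdown, 0.310 to 0.595 TPM in NTC), CRB3 (0.0630 to 0.182 TPM with knockdown, 0 to 0.132 TPM in NTC) and TUBB4A (0 to 0.0755 TPM with knockdown, 0.0137 to 0.0752 TPM in NTC) overlapped as well. The means of PSPN and CRB3 were higher with knockdown than in NTC. ACER1 was listed at 0 in every library. GTF2F1 also overlaps AC011491.1, a pseudogene on the opposite strand, by 188 bases. Larger overlaps on the opposite strand were those of SLC25A23 with CRB3 (1427 bases) and of CD70 with the pseudogene RPL7P50 (727 bases). CLPP, DENND1C and MLLT1 overlap antisense genes by 698, 688 and 643 bases. On their own strand GTF2F1 overlaps AC011491.2 by 3639 bases and MLLT1 overlaps AC011471.3 by 402 bases. The effect of these overlaps on the levels was not tested. The 15 annotated genes of the window with no row under their GENCODE name were not analysed here.

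Farther out, 18 tested genes start between 180 kb and 1 Mb from the KHSRP start. They had log2 fold changes from -0.14 to 0.15 with a median of -0.02, 9 of 18 were negative, and 0 were called. VMAC (0.15, 95% interval -0.05 to 0.35), 520 kb downstream, and NDUFA11 (-0.14, 95% interval -0.25 to -0.02), 521 kb downstream, a subunit of respiratory complex I, had the estimates farthest from 0. SLC25A23 and TNFSF9 lay below the lowest of these 18 values.

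**Figure D5:**
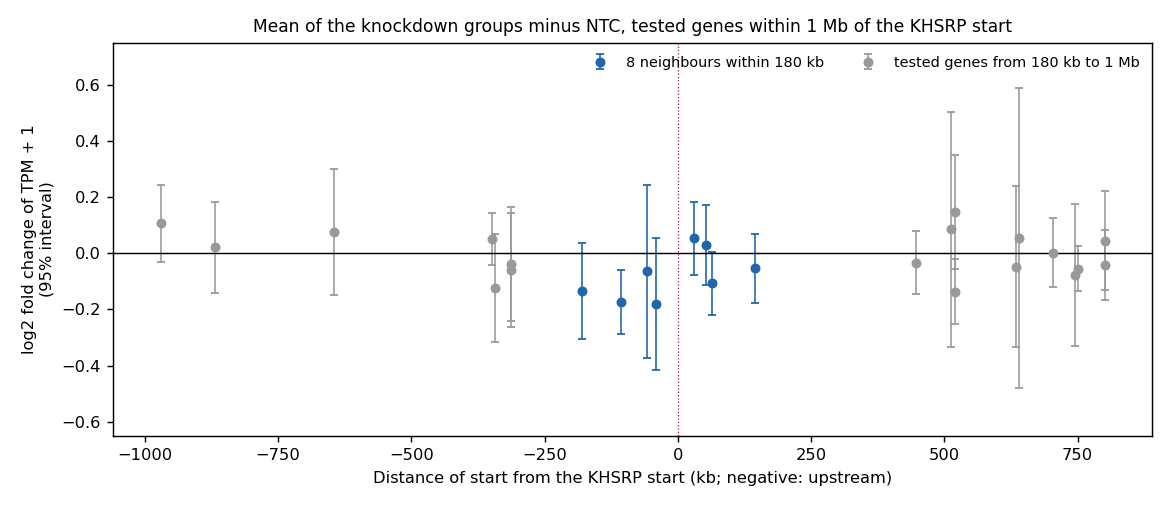
Log2 fold change of TPM + 1, mean of the knockdown groups minus NTC, with 95% intervals, for the tested genes that start within 1 Mb of the KHSRP start (horizontal axis in kb, upstream to the left). The 8 neighbours (blue) run from -0.18 to 0.05 and the 18 genes farther out (grey) from -0.14 to 0.15.

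Genes that work with the members were looked at through 7 lists by role, which held 46 genes, of which 41 were tested. None was called in either direction, with or without the replicate 3 term, and their median log2 fold change was 0.01. The 9 genes of TFIIF and the pre-initiation complex had a median of -0.01; POLR2A, the largest polymerase subunit, was at 154 ± 14.6 TPM with knockdown and 158 ± 20.3 TPM in NTC. The 10 tested genes of the super elongation complex and its relatives had a median of 0.04, with EAF2 the most abundant at 66.1 ± 3.03 TPM with knockdown and 61.8 ± 3.00 TPM in NTC. Of the 5 mitochondrial proteases YME1L1 was highest, at 163 ± 4.14 TPM with knockdown and 155 ± 9.20 TPM in NTC, and CLPX, the partner of CLPP, was at 43.6 ± 1.53 TPM with knockdown and 41.4 ± 0.996 TPM in NTC. The 4 tested genes of mitochondrial calcium and its carriers had a median of -0.03. The 8 AlkB family genes had a median of -0.04, with ALKBH2 at 54.0 ± 1.31 TPM with knockdown and 54.5 ± 3.73 TPM in NTC. RAB35, the GTPase served by the DENND1 proteins, was at 39.9 ± 2.50 TPM with knockdown and 42.8 ± 2.24 TPM in NTC, and TRAF2, an adaptor of TNF-family receptors, at 25.5 ± 1.40 TPM with knockdown and 25.2 ± 2.09 TPM in NTC (SD, n = 6 knockdown and 3 NTC libraries).

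Over the 9 libraries the profile of GTF2F1 was most like those of WDCP (Pearson's r = 0.975), RARS2 (0.971) and BTN2A1 (0.964), and that of SLC25A23 most like those of PIK3R2 (0.990), CAPN1 (0.986) and SPNS2 (0.986), on log2(TPM + 1). They are the highest values among all tested genes, and none of these genes lies in the KHSRP window. The 9 libraries differ in relative depth, and the replicate 3 libraries differ from the others.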

How the data were processed

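RNA from 9 CAL-1 libraries in 3 groups of 3 was given as 1 table of TPM, which the authors deposited for all libraries together; each column sums to 1000000. The submitters' processing notes name the build hg38; they name no counting tool, annotation or strand setting that could be used here. Genes with a mean of at least 1 TPM (10939 of 25540) were tested on log2(TPM + 1) with limma 3.58.1 in R 4.3.3 (trended variance, all 9 libraries, no covariates) and Benjamini-Hochberg adjustment over all tested genes at 0.05. The script was tested on simulated data. Contrasts were the mean of the knockdown groups, and each group, minus NTC, and KHSRPi#2 minus KHSRPi#1. TPM holds no read totals, so no counting intervals are given. Positions came from GENCODE 29 by symbol (96.1% of tested genes matched), sequences from RefSeq on GRCh38.p14. The members and lists were chosen with earlier results of these data known. By rule the text names KHSRP, all members, the window's other protein-coding genes, the 2 genes farthest from 0 between 180 kb and 1 Mb, the most abundant partner of each list (for 1 list it is not reported here), and the 3 genes most alike in profile to GTF2F1 and SLC25A23, the members with the nearest start on either side; CLPX, CD27 and TNFRSF9 were named after their values were seen. The alternatives changed the pseudocount, filter, scaling, samples and covariates.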

Additional observations from a re-analysis of the deposited data

Results flagged for a closer look

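ALKBH7 had 1 library far from the others. KHSRPi#2 replicate 3 was at 26.7 TPM, and its gap to the next of the 6 knockdown libraries was 0.636 of their whole range, where Dixon's critical value for 6 samples is 0.625. Chance gives about 1 such case in 20 groups, and 9 genes, KHSRP and the 8 neighbours, were looked at.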

How the results depend on the processing

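Under every alternative run, 0 of 8 neighbours were called in each comparison, and the lowest adjusted p of a member was 0.0654, for TNFSF9 with a term for replicate 3. KHSRP kept log2 fold changes between -2.79 and -2.59. The labels state no pairing, and the main fit did not treat replicate numbers as pairs. With group means removed, same-numbered libraries of different groups had correlations of 0.0398 to 0.628, with 8 of 9 pairs over 0.1. The replicate 3 pairs were at 0.622 to 0.628. Differently numbered libraries of different groups had correlations of -0.487 to 0.371. With a replicate block, 152 of all tested genes (1.39%) and 0 members were called on average over the groups, 54 genes in KHSRPi#1, 91 in KHSRPi#2 and 1 between them. The rank correlation of log2 fold change with distance was -0.0952 by nearest gene end, and -0.476 to -0.238 with 1 library left out. Median-ratio rescaling and quantile normalization put the members' median at -0.10 and -0.11, and leaving out 1 library at -0.16 to -0.04.

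Small estimates that did not pass the test had the opposite sign in some fits; the cause was not tested. For KHSRPi#2 minus KHSRPi#1, replicates 1 and 2 alone gave 0.0069 for CD70 and 0.021 for GTF2F1, median-ratio rescaling gave -0.022 for CLPP and -0.011 for MLLT1, and quantile normalization gave -0.0098 for MLLT1. With 1 library left out, with or without the replicate 3 term, that difference ran from -0.080 to 0.071 for CD70, -0.021 to 0.028 for CLPP, -0.0032 to 0.29 for DENND1C, -0.072 to 0.037 for GTF2F1, -0.026 to 0.056 for MLLT1 and -0.039 to 0.20 for SLC25A23. The average over the groups, minus NTC, ran from -0.017 to 0.068 for ALKBH7, -0.16 to 0.020 for DENND1C and -0.0051 to 0.095 for GTF2F1. KHSRPi#1 minus NTC ran from -0.079 to 0.017 for ALKBH7, and KHSRPi#2 minus NTC from -0.12 to 0.11 for DENND1C and -0.012 to 0.097 for GTF2F1. With 1 library left out, the average over the groups kept its sign but moved by over 1.5 times for CLPP (-0.16 to -0.049), SLC25A23 (-0.25 to -0.11) and MLLT1 (-0.090 to -0.015). With only the groups compared in the fit, the average over both knockdown groups was not fitted.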
